A study of Mus musculus with 48 samples.

Results

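Kidney slices kept outside the body for 24 h under the condition labelled normoxia-hyperoxia, the study's model of reperfusion, were compared with control slices of the same age in culture. The comparison takes the 12 of 48 RNA-seq libraries whose labels name either condition: 3 treated and 3 control libraries from C57BL/6J mice, and the same numbers from DBA/2J mice, all male. The choice rests on the labels alone, and the effect given is the mean over the 2 strains, with strain in the model. C57BL/6J and DBA/2J are inbred strains, and they are the founders of the BXD panel of recombinant mice used to map traits. The labels name no allele, transgene or drug for any of these 12 libraries, and they give no age. They do not state the oxygen level of the control slices, the oxygen levels or the timing of the switch in the treated slices, or whether slices of different groups came from the same mouse. Sample titles place the oxygen conditions and the controls in differently named sections of the study, so that section and treatment cannot be told apart. Replicates are numbered as biological replicates without a named animal, and p-values measure the spread between these libraries, which may be technical. Where it helps to place a value, the 6 h controls and the slices labelled normoxia (24 h, the study's model of ischemia) are given alongside, again with 3 libraries per strain.

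When blood flow returns to an ischemic kidney, oxygen rises, and mitochondria resume respiration and produce reactive oxygen species. The transcription factor HIF, which is degraded when oxygen-dependent prolyl hydroxylases modify it, drives genes for glycolysis, angiogenesis and hydroxylase feedback when oxygen is short. NRF2 drives antioxidant genes, and the unfolded protein response drives chaperones of the endoplasmic reticulum. The proximal tubule, a segment rich in mitochondria, is known as sensitive to lack of oxygen.

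Total counts per library ran from 5619309 in DBA/2J normoxia-hyperoxia replicate 2 to 25137581, and the next lowest library held 12384733. The mitochondrial genome's share of counts was 6.82 ± 0.97% in C57BL/6J controls and 14.1 ± 2.32% after normoxia-hyperoxia, and 3.52 ± 0.116% and 13.7 ± 3.3% in DBA/2J (SD, n = 3). Defining kidney genes were read in every library: Umod, made by the thick ascending limb, was lowest at 587 CPM (counts scaled to the library's total with TMM factors), in a DBA/2J control. Of 6 urothelial markers and 9 genes of adrenal, fat and muscle, 2 each had enough counts to be tested.

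Normoxia-hyperoxia slices differed from 24 h controls across most of the measured transcriptome. Of 17256 genes tested, 11772 (68.2%) passed an adjusted p under 0.05 in edgeR's quasi-likelihood test, 5881 higher (34.1%) and 5891 lower (34.1%). The log2 fold change exceeded 1 in size for 2647 genes that rose and 1582 that fell, and it exceeded 3 for 210 and 156. In 8381 genes (48.6%) both strains showed every treated library beyond every control, with the same sign. The median over all genes tested was 0.0036, with quartiles of -0.47 and 0.63. With total counts as the only scaling that median moved to -0.166, and the calls became 4699 higher and 7347 lower. Since 68.2% of genes were called, a list's count is read against that share, and against 34.1% for each direction.

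HIF target genes were lower after normoxia-hyperoxia. Of 20 tested, 16 fell, 2 rose and 2 did not pass, with a median log2 fold change of -1.27. The fall covered the cell-surface carbonic anhydrase Car9, the prolyl hydroxylases Egln1 (-1.43) and Egln3 (-1.69), collagen prolyl hydroxylases P4ha1 (-1.69) and P4ha2, the mitophagy receptor Bnip3 (-1.61) and the vascular growth factor Vegfa (-0.54). The promoters of the 3 targets with the largest change are shown because the motif that HIF binds lies in each. They are the 250 bases before the RefSeq start on GRCm38.p6, read 5′ to 3′ on the gene's strand, at chr4:43506776-43507025 (plus strand) for Car9, chr8:45999851-46000100 (minus strand) for Ankrd37 and chr11:54100674-54100923 (plus strand) for P4ha2. Capitals mark ACGTG or GCGTG on either strand, a pair that also takes in part of the E-box CACGTG.
Car9: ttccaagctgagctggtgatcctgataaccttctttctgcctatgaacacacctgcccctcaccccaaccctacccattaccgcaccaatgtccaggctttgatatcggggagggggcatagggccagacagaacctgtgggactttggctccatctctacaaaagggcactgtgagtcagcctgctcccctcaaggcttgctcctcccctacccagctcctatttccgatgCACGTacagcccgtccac
Ankrd37: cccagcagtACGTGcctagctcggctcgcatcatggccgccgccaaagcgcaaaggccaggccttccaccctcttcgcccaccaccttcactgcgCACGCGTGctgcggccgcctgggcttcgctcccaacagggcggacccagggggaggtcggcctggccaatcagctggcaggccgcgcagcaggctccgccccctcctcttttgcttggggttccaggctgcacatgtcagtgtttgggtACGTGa
P4ha2: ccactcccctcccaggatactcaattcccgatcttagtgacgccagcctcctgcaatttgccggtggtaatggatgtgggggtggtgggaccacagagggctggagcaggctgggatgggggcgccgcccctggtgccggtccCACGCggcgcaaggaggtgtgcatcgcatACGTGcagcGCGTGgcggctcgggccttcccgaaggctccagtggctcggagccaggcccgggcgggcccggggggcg
Matches numbered 1 in Car9, 4 in Ankrd37 (some overlapping) and 3 in P4ha2. Among the 18 HIF targets with a promoter in the table, 15 held the motif, and 38.6% of all 27025 promoters did. A match is a run of letters, not a measured binding site.

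Car9 stood at 4.45, 5.13 and 8.07 CPM in the C57BL/6J controls and at 0.113, 0.173 and 0.106 CPM after normoxia-hyperoxia. Among the DBA/2J libraries, Car9 read 5.12, 2.59 and 3.17 CPM in controls and 0.587, 0.524 and 0.354 CPM in treated slices. The groups did not overlap in either strain, and Car9 (chr4:43506966-43513729, ENSMUSG00000028463) had the steepest fall of the list (log2 fold change -4.16, SE 0.29, edgeR adjusted p = 1.05e-08). Ankrd37, a nuclear ankyrin-repeat protein and common hypoxia marker, fell 4.82-fold (log2 fold change -2.27, SE 0.16, edgeR adjusted p = 4.12e-08). Control slices of C57BL/6J held P4ha2 at 101, 94.4 and 98.5 CPM, and treated slices at 17.9, 17.8 and 18.1 CPM. For DBA/2J the P4ha2 values were 83.8, 109 and 81 CPM and 18.5, 23.4 and 25.1 CPM in the same order. All treated libraries of P4ha2, an enzyme that hydroxylates collagen prolines, lay below all controls (log2 fold change -2.25, SE 0.089, edgeR adjusted p = 4.28e-11). Vegfa moved less: its controls held 1190, 1180 and 1090 CPM in C57BL/6J against 835, 735 and 815 CPM after treatment, and 793, 1240 and 927 against 567, 706 and 774 CPM in DBA/2J (log2 fold change -0.54, SE 0.11, edgeR adjusted p = 0.000346). Ndrg1, a stress-responsive cytosolic protein, had a log2 fold change of -0.13 that did not pass (edgeR adjusted p = 0.309). The members that rose were the carbonic anhydrase Car12 (1.11, the mean of 2.16 in C57BL/6J and 0.065 in DBA/2J) and the clock-linked repressor Bhlhe40 (0.74). Among 7 tested oxygen-sensing genes, Epas1, which encodes HIF-2α, rose (log2 fold change 1.44, SE 0.093, edgeR adjusted p = 6.13e-09), Hif1a rose by 0.36, and Vhl, the ligase subunit that marks HIF for degradation, fell (-0.93).

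**Figure D1:**
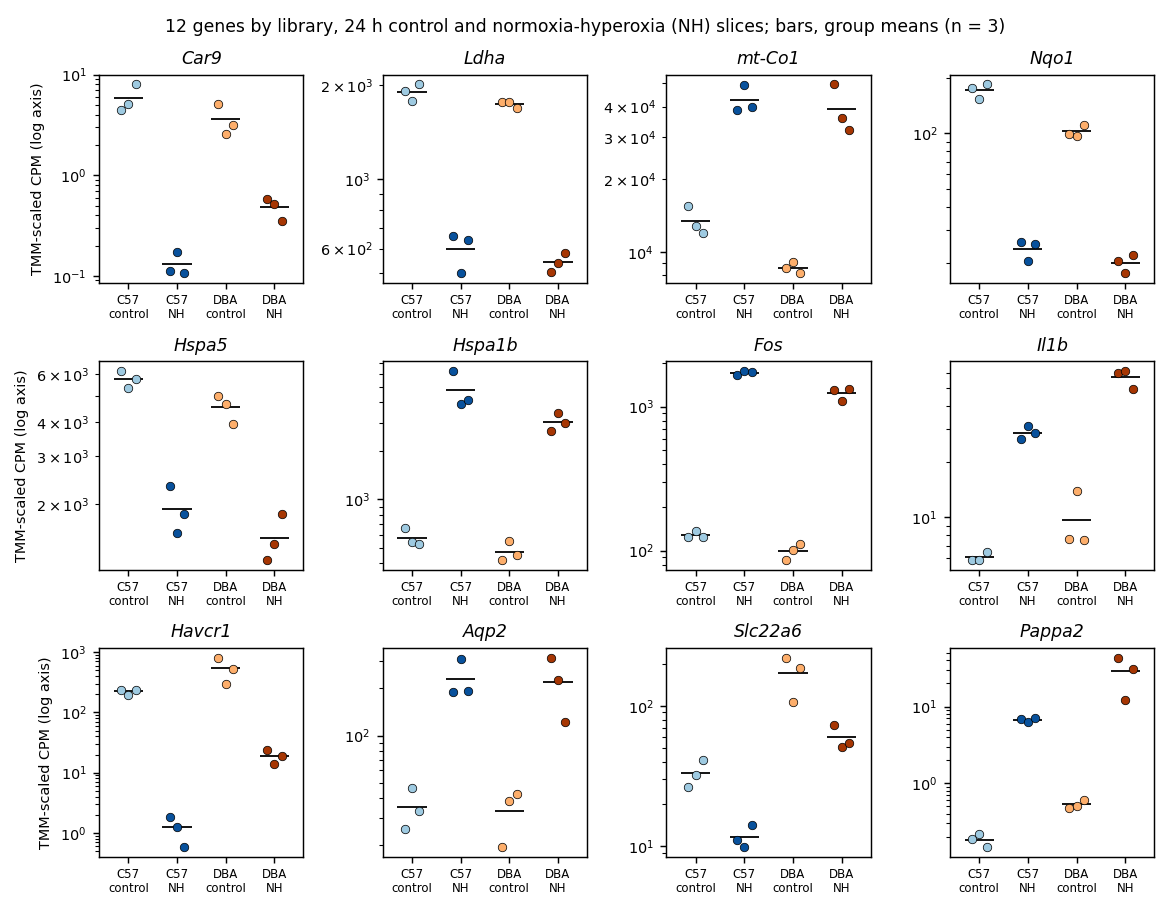
TMM-scaled CPM (log axis) of 12 genes in each of the 12 libraries, by strain and condition; points are libraries and bars are group means (n = 3). Car9, Ldha, Nqo1, Hspa5, Havcr1 and Slc22a6 lie lower in every treated library than in every control of the same strain, and mt-Co1, Hspa1b, Fos, Il1b, Aqp2 and Pappa2 lie higher.

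Glycolytic genes fell with the HIF targets: 13 of 17 were lower, 2 rose and 2 did not pass (median -1.31). The 3 C57BL/6J control libraries gave 1920, 1780 and 2020 CPM for Ldha, and the 3 treated libraries 657, 500 and 639 CPM. Ldha levels in DBA/2J were 1770, 1770 and 1690 CPM in controls against 505, 540 and 582 CPM after treatment. The lactate dehydrogenase Ldha was 3.2-fold lower, with no overlap of groups (log2 fold change -1.68, SE 0.081, edgeR adjusted p = 2.24e-10). Slc16a3, which exports lactate, stood at 181, 207 and 210 CPM in the C57BL/6J controls and 28.3, 22.5 and 29.6 CPM after treatment, and at 173, 229 and 185 and 33.3, 41.8 and 46.4 CPM in DBA/2J (log2 fold change -2.59, SE 0.10, edgeR adjusted p = 1.49e-10). The first enzyme of the pathway, hexokinase 2 (Hk2), fell as well (-1.48, SE 0.14), as did Eno1 (-1.82), Gapdh (-1.63) and Pgk1 (-1.36); Gapdh, Eno1 and Ldha have many pseudogene copies whose reads counting may share. The muscle-type phosphofructokinase Pfkm rose (log2 fold change 1.46, SE 0.088, edgeR adjusted p = 2.3e-09), as did Pfkfb3 (0.75), which makes the activator of phosphofructokinase. Of 7 gluconeogenesis genes, G6pc, the glucose-6-phosphatase that ends the pathway, rose (log2 fold change 0.90, SE 0.25, edgeR adjusted p = 0.00772) and the mitochondrial Pck2 fell (-1.62), while 4 did not pass.

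Genes of oxidative metabolism were higher. All 13 tested genes of the mitochondrial genome rose (median 1.85, or 1.84 with mt-Nd3 at its bound, since its DBA/2J controls held 3 counts or fewer), 19 of 20 nuclear genes of the respiratory chain rose with 1 not passing (median 0.70), and of 19 genes of fatty acid oxidation 15 rose, 1 fell and 3 did not pass (median 0.74). mt-Co1 levels were 15500, 12800 and 12000 CPM without and 38600, 48900 and 40000 CPM with normoxia-hyperoxia in C57BL/6J. With DBA/2J slices, mt-Co1 gave 8600, 9070 and 8150 CPM and 49600, 35900 and 31900 CPM, respectively. Every treated library exceeded every control for mt-Co1, a catalytic subunit of cytochrome oxidase (log2 fold change 1.92, SE 0.13, edgeR adjusted p = 8.3e-09). In the nuclear list Cox6c, a subunit of cytochrome oxidase, rose (log2 fold change 0.96, SE 0.061, edgeR adjusted p = 3.21e-09), and Cox5a of the same complex rose by 0.37. Ppargc1a stood at 60.8, 62.2 and 46 CPM in the C57BL/6J controls and at 260, 251 and 208 CPM after normoxia-hyperoxia. Among the DBA/2J libraries, Ppargc1a read 40.3, 51.1 and 49.1 CPM in controls and 137, 161 and 173 CPM in treated slices. Ppargc1a, the coactivator that drives mitochondrial biogenesis, was 3.76-fold higher (log2 fold change 1.91, SE 0.097, edgeR adjusted p = 7.19e-10). Cpt1a, which admits fatty acids to mitochondria, rose (log2 fold change 1.14, SE 0.071, edgeR adjusted p = 2.63e-09), together with the receptor Ppara (0.88). When the mitochondrially encoded genes were left out of the counts, 11764 genes were called. Markers of the distal nephron, given further on, rose in the same libraries, and their part in these values was not tested.

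NRF2 target genes were lower: 16 of 20 fell, 2 rose and 2 did not pass (median -1.02). Control slices of C57BL/6J held Nqo1 at 177, 154 and 185 CPM, and treated slices at 25.9, 20.4 and 25.1 CPM. For DBA/2J the Nqo1 values were 99.8, 97.2 and 111 CPM and 20.5, 17.5 and 22 CPM in the same order. Nqo1, the quinone reductase often read as the reporter of NRF2, fell in both strains without overlap (log2 fold change -2.60, SE 0.081, edgeR adjusted p = 9.32e-12). Slc7a11, the cystine importer that feeds glutathione synthesis, had the steepest fall. It stood at 117, 97.9 and 87.8 CPM in C57BL/6J controls and 5.32, 3.93 and 3.81 CPM after treatment, against 70.7, 109 and 80.7 and 19.9, 17.1 and 13.2 CPM in DBA/2J (log2 fold change -3.47, SE 0.15, edgeR adjusted p = 1.11e-09). Hmox1, which degrades heme, fell 3.01-fold (log2 fold change -1.59, SE 0.11, edgeR adjusted p = 1.18e-08), and so did the glutathione synthesis subunit Gclm (-2.03) and the pentose phosphate enzymes Pgd (-2.22), Taldo1 (-1.71) and G6pdx (-1.53). Ephx1 (0.47) and Srxn1 (0.44), which repairs peroxiredoxins, rose, though Srxn1 no longer passed with total-count scaling (edgeR adjusted p = 0.0564). The strain difference passed for 5 of the 20, against 1.43% of all genes, among them Slc7a11 (-4.55 in C57BL/6J and -2.39 in DBA/2J) and Ephx1 (-0.079 in C57BL/6J and 1.02 in DBA/2J). The letters TGACNNNGC, the core of the element NRF2 binds, were found on either strand in 3 of 17 promoters of the list and in 10.1% of all promoters; the promoters of Slc7a11, Nqo1 and Pgd held none within 250 bases of the start. Outside the NRF2 list, 14 antioxidant enzymes split into 4 higher, 7 lower and 3 that did not pass. Mitochondrial superoxide dismutase Sod2 rose (log2 fold change 0.79, SE 0.0596, edgeR adjusted p = 2.11e-08), whereas catalase (Cat, -1.16) and Prdx6 (-1.03) fell. Of 11 metal and iron genes tested, 7 fell, among them the zinc exporter Slc30a1 (-1.14), the iron exporter Slc40a1 (-0.88) and the ferritin chains Fth1 (-0.74) and Ftl1 (-0.69), and 2 rose.

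Chaperones of the endoplasmic reticulum fell while most heat shock proteins rose. Of 20 genes of the unfolded protein and integrated stress responses, 16 fell, 2 rose and 2 did not pass (median -0.998), while of 15 heat shock genes 11 rose, 1 fell and 3 did not pass (median 1.31). The 3 C57BL/6J control libraries gave 6180, 5360 and 5750 CPM for Hspa5, and the 3 treated libraries 2330, 1560 and 1840 CPM. Hspa5 levels in DBA/2J were 5000, 4650 and 3940 CPM in controls against 1240, 1420 and 1840 CPM after treatment. Hspa5, the main chaperone of the endoplasmic reticulum, fell 3.03-fold without overlap of groups (log2 fold change -1.60, SE 0.12, edgeR adjusted p = 2.02e-08). Its co-regulated partners Creld2 (-2.52), Pdia4 (-2.35), Sdf2l1 (-2.27) and Hsp90b1 (-1.86) fell too. On the integrated stress side Asns (-2.47), Trib3 (-2.42) and Ddit3, which encodes CHOP (log2 fold change -0.61, SE 0.15, edgeR adjusted p = 0.00397; an overlapping annotation entry of the same symbol may take some reads), fell, and Atf3, a stress-induced repressor, rose (log2 fold change 1.97, SE 0.14, edgeR adjusted p = 5.14e-08). Hspa1b levels were 666, 539 and 523 CPM without and 6290, 3890 and 4130 CPM with normoxia-hyperoxia in C57BL/6J. With DBA/2J slices, Hspa1b gave 417, 548 and 451 CPM and 2650, 3440 and 2980 CPM, respectively. Hspa1b, the inducible cytosolic HSP70, was higher in every treated library than in every control of its strain. The fitted change was 2.86 on the log2 scale (SE 0.138, edgeR adjusted p = 3.77e-10). Its near-identical copy Hspa1a gave 2.79, so reads could pass between the 2 genes. The co-chaperone Dnajb1 had the largest rise of the list (log2 fold change 3.08, SE 0.11, edgeR adjusted p = 2.73e-11), followed after HSP70 by Hsph1 (2.47) and Hspb1 (2.06).

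Immediate early genes, which are switched on within minutes of a stimulus, were higher: 14 of 18 rose, 2 fell and 2 did not pass (median 1.17). Fos stood at 124, 137 and 125 CPM in the C57BL/6J controls and at 1670, 1770 and 1730 CPM after normoxia-hyperoxia. Among the DBA/2J libraries, Fos read 85.9, 101 and 111 CPM in controls and 1300, 1100 and 1320 CPM in treated slices. The AP-1 subunit Fos (chr12:85473890-85477273, ENSMUSG00000021250) was 12.8-fold higher with no overlap (log2 fold change 3.68, SE 0.084, edgeR adjusted p = 1e-12). Fosb (3.10), Egr1 (1.97), Jun (1.84) and Klf4 (1.66) rose with it, and Myc (-1.08) and the late AP-1 subunit Fosl1 (-0.76) fell. Among 16 p53 targets 11 fell, 3 rose and 2 did not pass. Cdkn1a, the cell-cycle inhibitor p21, fell (log2 fold change -1.02, SE 0.096, edgeR adjusted p = 2.55e-07), as did Phlda3 (-2.16) and the death effector Bax (-1.16), and the death receptor Fas rose (log2 fold change 1.87, SE 0.0897, edgeR adjusted p = 2.24e-10). Of 16 cell death genes 8 rose, 4 fell and 4 did not pass. The inflammasome genes Nlrp3 (log2 fold change 2.57, SE 0.16, edgeR adjusted p = 3.05e-09), Pycard (1.96) and Casp1 (1.57) were among those that rose, and the necroptosis genes Ripk3 (-0.98) and Mlkl (-0.85) among those that fell.

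Tubular injury markers went both ways, with 13 of 20 lower, 6 higher and 1 that did not pass (median -0.74). Control slices of C57BL/6J held Havcr1 at 235, 196 and 238 CPM, and treated slices at 1.87, 1.25 and 0.582 CPM. For DBA/2J the Havcr1 values were 808, 297 and 516 CPM and 23.4, 14 and 18.9 CPM in the same order. Havcr1, which encodes KIM-1 and marks injured proximal tubule, had the largest fall of the list (log2 fold change -6.16, SE 0.30, edgeR adjusted p = 1.12e-08), with effects of -7.51 in C57BL/6J and -4.81 in DBA/2J (edgeR adjusted p of the strain difference = 0.0533). Sprr1a, a cornified envelope protein, fell (log2 fold change -2.61, SE 0.17, edgeR adjusted p = 2.94e-08), with Krt19 (-2.56) and Krt20 (-1.43). The 3 C57BL/6J control libraries gave 98.9, 60.6 and 61.4 CPM for Lcn2, and the 3 treated libraries 35.9, 31.4 and 20.5 CPM. Lcn2 levels in DBA/2J were 50, 73.2 and 53.2 CPM in controls against 18.8, 19.7 and 23.6 CPM after treatment. Lcn2, the secreted injury marker NGAL, fell (log2 fold change -1.42, SE 0.18, edgeR adjusted p = 2.37e-05). Clusterin (Clu, 1.17), Vcam1 (1.09) and Sox9 (0.46) rose.

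Inflammatory genes were mixed. Of 20 cytokines and chemokines 7 rose, 7 fell and 6 did not pass. Il1b levels were 5.86, 5.87 and 6.53 CPM without and 26.6, 31.1 and 28.6 CPM with normoxia-hyperoxia in C57BL/6J. With DBA/2J slices, Il1b gave 7.63, 13.9 and 7.56 CPM and 60.7, 62 and 49.4 CPM, respectively. Il1b, a product of activated myeloid cells, was higher in every treated library (log2 fold change 2.39, SE 0.14, edgeR adjusted p = 6.55e-09), and Tnf rose by 1.57. Il11 stood at 105, 112 and 93.5 CPM in the C57BL/6J controls and at 10.3, 8.98 and 14.9 CPM after normoxia-hyperoxia. Among the DBA/2J libraries, Il11 read 217, 140 and 120 CPM in controls and 8.22, 9.79 and 13.1 CPM in treated slices. Il11, an epithelial and stromal cytokine of the IL-6 family, fell 11.8-fold (log2 fold change -3.56, SE 0.19, edgeR adjusted p = 1.41e-08). Il6 (log2 fold change -1.56, SE 0.21, edgeR adjusted p = 4.68e-05), Cxcl1 (-0.95) and Ccl2 (-0.84) fell, and Cxcl10 (1.23) rose. For Ccl2 this mean over strains came from C57BL/6J, with 565, 733 and 393 counts in controls and 120, 191 and 142 after treatment. In DBA/2J its groups overlapped, at 442, 814 and 279 against 490, 145 and 712 counts, the 145 from the shallowest library. Of 13 genes of NF-kappaB and its feedback 11 rose, 1 fell and 1 did not pass, led by the adhesion molecule Icam1 (log2 fold change 1.62, SE 0.087, edgeR adjusted p = 6.62e-10) and Birc3 (1.17). Of 20 interferon-stimulated genes 14 rose, 1 fell and 5 did not pass (median 0.84), with Mx1 at 2.08, Irf1 at 1.99 and Ifit1 at 1.77. That count averages strains that differed: 8 of the 20 passed the test of the strain difference, against 1.43% of all genes, each with the higher log2 fold change in DBA/2J. Irf7, the amplifying factor of the interferon response, had values of -1.25 in C57BL/6J and 0.71 in DBA/2J (difference 1.96, SE 0.34, edgeR adjusted p = 0.0202). In C57BL/6J it stood at 79.2, 145 and 96 CPM in controls and 38.5, 47.8 and 49 CPM after treatment, and in DBA/2J at 23.3, 31.2 and 26.2 and 37, 36 and 58.2 CPM, so the treated libraries lay below the controls in the first strain and above them in the other. Oasl2 had values of -0.68 in C57BL/6J and 1.07 in DBA/2J (difference 1.75, SE 0.34, edgeR adjusted p = 0.0357). The 8 became 2 without C57BL/6J normoxia-hyperoxia replicate 1 or DBA/2J control replicate 1 or 3, 3 without C57BL/6J control replicate 2, 4 without DBA/2J normoxia-hyperoxia replicate 3, and 5 without C57BL/6J control replicate 3, C57BL/6J normoxia-hyperoxia replicate 2 or 3, or DBA/2J normoxia-hyperoxia replicate 2. It was 5 in the fit of all 48 libraries, 13 with DESeq2 and 17 without the low-count filter, again with each value higher in DBA/2J.

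In the same libraries 15 of 17 immune cell markers rose and 2 fell, Cd68 and Itgam (median 1.37). Their summed level ran from 259 to 414 CPM in C57BL/6J controls and 941 to 1260 CPM after treatment. In DBA/2J it ran from 350 to 467 CPM and from 1780 to 2000 CPM. Cd74 alone made up most of the sum in the treated libraries of both strains. The part of immune cells in the cytokine values was not tested. Cd74, the chaperone of class II antigen presentation, rose (86.7, 163 and 153 against 680, 912 and 933 CPM in C57BL/6J and 160, 138 and 111 against 1420, 1330 and 1340 CPM in DBA/2J, log2 fold change 2.98, SE 0.16, edgeR adjusted p = 8.03e-09), and the integrin Itgam fell (log2 fold change -1.91, SE 0.18, edgeR adjusted p = 9.85e-07).

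Matrix and growth factor genes were mixed. Among 20 matrix and TGF-beta genes 9 rose and 8 fell: fibronectin (Fn1) fell (log2 fold change -1.80, SE 0.14, edgeR adjusted p = 3.09e-07), Ccn2 fell (-1.26), and Tgfb2 (1.73) and the collagen chain Col1a2 (1.07) rose. Of the EGF receptor and its ligands, Egfr fell (log2 fold change -1.13, SE 0.068, edgeR adjusted p = 1.88e-09), Areg fell 10.1-fold (log2 fold change -3.34, SE 0.17, edgeR adjusted p = 6.47e-10), and Ereg held no count in any treated library, which puts it, against a floor of 3 counts per library, at least 4.51-fold lower than control in the C57BL/6J slices and at least 9.47-fold lower in the DBA/2J slices. Hbegf rose (0.57). All 20 ribosomal protein genes fell, from -0.40 for Rps14 to -1.01 for Rps2 (median -0.66); these genes have many processed copies that counting may share reads with. Cell cycle genes mostly did not pass (12 of 19), with Mki67, the proliferation marker, higher (log2 fold change 1.45, SE 0.21, edgeR adjusted p = 3.56e-05) and the replication helicase genes Mcm2 (-1.03) and Mcm5 (-1.05) lower. Among 20 genes of cholesterol synthesis 9 rose, 5 fell and 6 did not pass. Of 14 autophagy genes 7 rose, including Gabarapl1 (1.41) and Pink1 (0.92), and 4 fell; of 16 clock genes 6 rose, 3 fell and 7 did not pass.

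**Figure D2:**
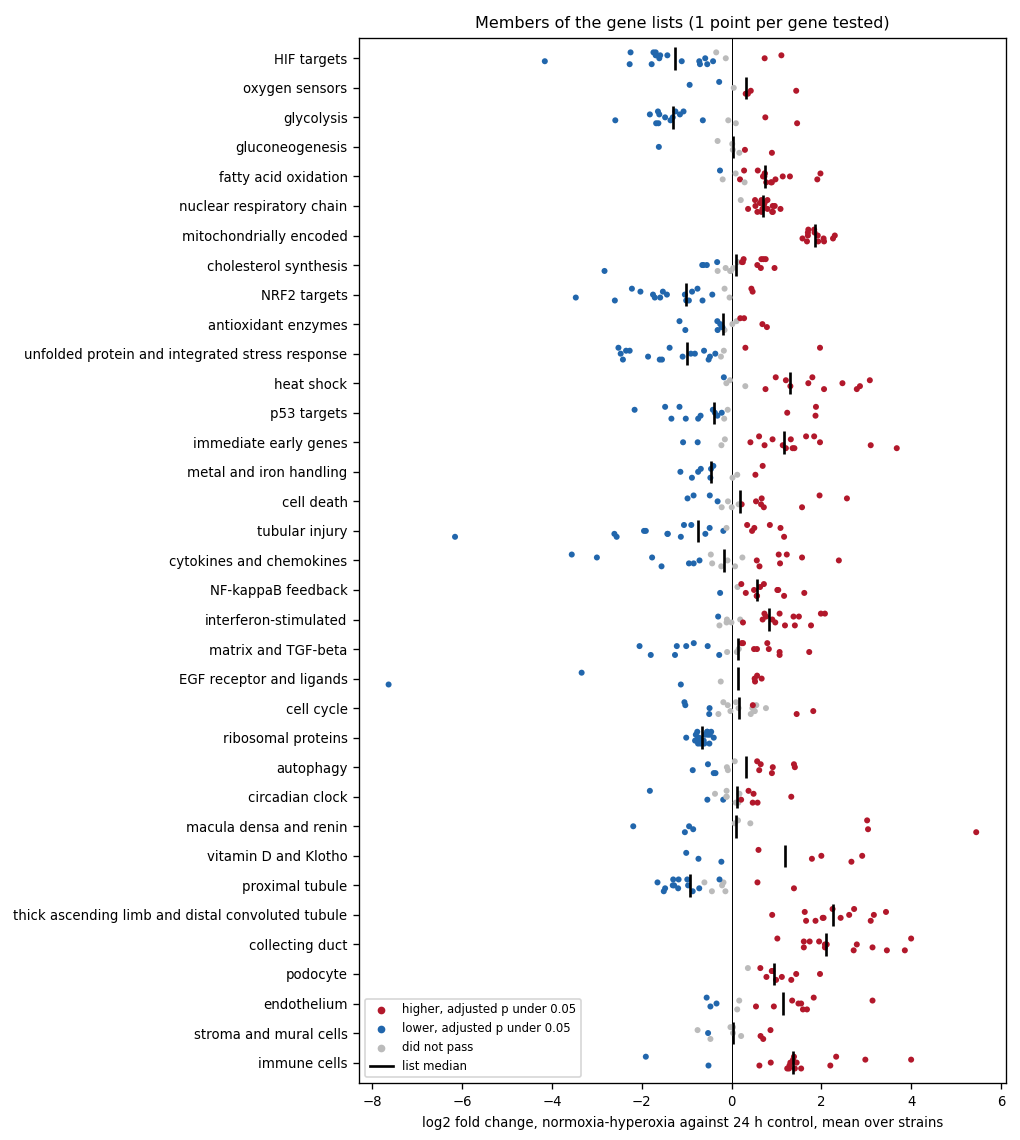
Log2 fold change (normoxia-hyperoxia against 24 h control, mean over strains) of every tested gene in the 35 lists with at least 5 tested members; red points rose and blue points fell at an adjusted p under 0.05, grey points did not pass and black bars are list medians. Wholly to the right of zero lie the lists of the collecting duct and of the thick ascending limb and distal convoluted tubule. The podocyte, nuclear respiratory chain and mitochondrially encoded lists also lie wholly to the right. The ribosomal protein genes lie wholly to the left.

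Markers of nephron segments separated proximal from distal. In bulk slices fewer cells of a type and less RNA per cell cannot be told apart. Of 20 proximal tubule markers 13 fell, 2 rose and 5 did not pass (median -0.92). Control slices of C57BL/6J held Slc22a6 at 26.5, 32.3 and 41.5 CPM, and treated slices at 11.1, 9.89 and 14.3 CPM. For DBA/2J the Slc22a6 values were 221, 107 and 187 CPM and 73, 51.4 and 54.8 CPM in the same order. Slc22a6, the organic anion transporter OAT1, lay lower in every treated library (log2 fold change -1.51, SE 0.19, edgeR adjusted p = 2.88e-05). The glucose transporter Slc5a2 (-1.28), the phosphate transporter Slc34a1 (-1.30) and the endocytic receptor Lrp2 (log2 fold change -0.87, SE 0.17, edgeR adjusted p = 0.000892) fell, and Gatm, an enzyme of creatine synthesis, rose (log2 fold change 1.39, SE 0.23, edgeR adjusted p = 0.000258). The summed level of the list ran from 1770 to 2500 CPM in C57BL/6J controls and 1280 to 1690 CPM after treatment, and from 4320 to 8150 CPM and 2870 to 4270 CPM in DBA/2J. The DBA/2J libraries were higher than C57BL/6J libraries in both conditions.

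Distal markers rose without exception among those tested: 13 of 13 for the thick ascending limb and distal convoluted tubule (median 2.25) and 14 of 14 for the collecting duct (median 2.10). The 3 C57BL/6J control libraries gave 2640, 3210 and 1320 CPM for Umod, and the 3 treated libraries 8660, 13600 and 4890 CPM. Umod levels in DBA/2J were 587, 2300 and 1790 CPM in controls against 6310, 5820 and 4640 CPM after treatment. Umod, uromodulin, was 3.66-fold higher (log2 fold change 1.87, SE 0.37, edgeR adjusted p = 0.000935), and the sodium-chloride cotransporter Slc12a3 rose by 2.62 and Pvalb by 3.44. Aqp2 levels were 25.6, 46.1 and 33.1 CPM without and 189, 310 and 194 CPM with normoxia-hyperoxia in C57BL/6J. With DBA/2J slices, Aqp2 gave 19.5, 38.1 and 42.4 CPM and 314, 227 and 123 CPM, respectively. Aqp2, the water channel of principal cells, rose with no overlap of groups (log2 fold change 2.72, SE 0.30, edgeR adjusted p = 1.66e-05). In intercalated cells, which handle acid and base, Slc4a1 (log2 fold change 4.00, SE 0.26, edgeR adjusted p = 1.27e-07), Slc26a4 (3.86) and the transcription factor Foxi1 (2.79) rose. Summed collecting duct levels ran from 398 to 538 CPM in C57BL/6J controls and 2280 to 3180 CPM after treatment, and from 320 to 466 CPM and 1700 to 1940 CPM in DBA/2J.

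Glomerular and vascular markers were also mostly higher. Of 10 podocyte genes 9 rose and 1 did not pass, with nephrin (Nphs1) at 153, 132 and 143 against 273, 214 and 275 CPM in C57BL/6J and 61, 101 and 85.9 against 130, 201 and 228 CPM in DBA/2J (log2 fold change 0.99, SE 0.15, edgeR adjusted p = 0.000122). Of 14 endothelial genes 9 rose, 3 fell and 2 did not pass. The 3 that fell became 0 without C57BL/6J control replicate 2, DBA/2J control replicate 2 or DBA/2J normoxia-hyperoxia replicate 1, and 1 without C57BL/6J normoxia-hyperoxia replicate 1. Plvap stood at 44, 62.8 and 52.5 CPM in the C57BL/6J controls and at 399, 573 and 338 CPM after normoxia-hyperoxia. Among the DBA/2J libraries, Plvap read 44.4, 67.7 and 50.6 CPM in controls and 390, 539 and 625 CPM in treated slices. Plvap, a protein of fenestrated capillaries, had the largest rise of that list (log2 fold change 3.14, SE 0.18, edgeR adjusted p = 3.01e-08), and the angiopoietin receptor Tek rose by 1.83. Of 10 stromal and mural genes 6 did not pass. Kl, the kidney hormone co-receptor Klotho, rose from 72.8, 127 and 98 to 993, 702 and 1110 CPM in C57BL/6J and from 175, 192 and 238 to 758, 1010 and 850 CPM in DBA/2J (log2 fold change 2.67, SE 0.16, edgeR adjusted p = 2.76e-08), and the calcium-sensing receptor Casr rose by 2.91, while Cyp27b1, which activates vitamin D, fell (-1.01). Among 10 macula densa and renin genes 3 rose and 4 fell. Control slices of C57BL/6J held Pappa2 at 0.188, 0.217 and 0.147 CPM, and treated slices at 6.8, 6.22 and 7.09 CPM. For DBA/2J the Pappa2 values were 0.474, 0.501 and 0.61 CPM and 43.3, 12.2 and 31.3 CPM in the same order. Pappa2, a protease of the macula densa that frees insulin-like growth factor, rose 43.7-fold (log2 fold change 5.45, SE 0.33, edgeR adjusted p = 1.7e-08), and the neuronal nitric oxide synthase Nos1 rose (3.04). Ptgs2 of the same list, the cyclooxygenase COX-2, fell (log2 fold change -2.19, SE 0.11, edgeR adjusted p = 1.41e-09). Which cells of the slice carried that fall was not tested.

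The largest increases over both strains, among genes with a mean log2 CPM of at least 2 and treated libraries beyond all controls, were led by the pacemaker channel gene Hcn4. The 3 C57BL/6J control libraries gave 0, 0.087 and 0.0734 CPM for Hcn4, and the 3 treated libraries 16.2, 6.82 and 12.4 CPM. Hcn4 levels in DBA/2J were 0.0948, 0 and 0.122 CPM in controls against 7.16, 5.24 and 11.3 CPM after treatment. Control libraries of Hcn4 lay at or under 3 counts, so treated levels were at least 72.1-fold higher in C57BL/6J and at least 51.4-fold higher in DBA/2J (edgeR adjusted p = 7.86e-09). After Pappa2 came the muscle gene Nrap (4.64), the macrophage lectin Mgl2 (4.16), the immunoglobulin joining chain Jchain (4.12), Hepacam2 (4.07), Slc4a1, the receptor Insrr (3.99), the chemokines Ccl4 (3.97) and Ccl3 (3.94), Slc26a4 and Cd300lg (3.79). Slc4a1, Slc26a4 and Insrr are known from intercalated cells of the collecting duct.

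The largest decreases were led by the carboxypeptidase gene Cpa4. Cpa4 levels were 47.1, 32 and 26.3 CPM without and 0.113, 0 and 0 CPM with normoxia-hyperoxia in C57BL/6J. With DBA/2J slices, Cpa4 gave 27.3, 27.1 and 21.5 CPM and 0.528, 0.175 and 0 CPM, respectively. In C57BL/6J the treated libraries of Cpa4 held 3 counts or fewer, at least 230-fold below the controls (edgeR adjusted p over both strains = 2.99e-09). Crct1, a gene of cornified epithelia, and the ligand Wnt7a reached the same floor in C57BL/6J and were at least 72.7-fold and 175-fold lower there. Others among them were Havcr1, the pore-forming Gsdma (-5.73), the glutathione transferase Gsta1 (-5.57), the chromatin protein Hmga2 (-5.24), the cornified envelope gene Cnfn (-5.14), the laminin chain Lamb3 (-4.87), Xirp2 (-4.77) and Derl3 (-4.72), which serves degradation from the endoplasmic reticulum. Gsta1 has near-identical relatives, and its value is uncertain for that reason. Wnt7a gave 26.7, 24.3 and 29.3 CPM in C57BL/6J controls. Each of the 12 largest decreases had more counts in every 24 h control than in any 6 h control or normoxia library. For Cpa4 the counts were 352 to 1005 in 24 h controls, 0 to 5 in 6 h controls and 0 under normoxia. For Crct1 they were 156 to 720, 0 to 1 and 0 in the same order. These counts are given without a test.

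Set against the normoxia slices, with which the same 6 treated libraries are shared, several lists had another direction. Of 17228 genes tested, 12663 (73.5%) differed, 6371 higher (37%) and 6292 lower (36.5%) after normoxia-hyperoxia. HIF targets and glycolysis were mostly above normoxia (13 of 20 and 14 of 17 higher) although below control. Lower than under normoxia were 4 HIF targets, among them Car9 (-4.79) and Ak4 (-1.82), and 2 glycolytic genes. All 20 nuclear respiratory chain genes were lower. Mitochondrially encoded genes split by how many reads they held, in a division made after the counts were seen. Of the 6 with a mean of at least 10000 counts over the 24 h libraries, mt-Co1 (-0.62) and mt-Nd5 (-1.02) were lower than under normoxia, and mt-Nd1, mt-Nd2, mt-Nd4 and mt-Cytb did not pass (median of the 6, -0.30). The other 7, which held at most 1209 counts in any treated library, were all lower, and the median of -1.61 over the 13 rests on them. Treated C57BL/6J slices gave 14.1 ± 2.32% of their counts to the mitochondrial genome and normoxia slices 23.9 ± 1.55% (SD, n = 3). For DBA/2J these shares were 13.7 ± 3.3% with normoxia-hyperoxia and 12.3 ± 0.534% with normoxia, so the treated mean was not lower there. Immediate early genes were higher in 18 of 18, heat shock genes in 14 of 15, tubular injury genes in 20 of 20, NF-kappaB genes in 13 of 13 and interferon-stimulated genes in 20 of 20. Proximal tubule markers were lower than under normoxia in 20 of 20. Fos averaged 6.49 ± 1.64 CPM in C57BL/6J normoxia slices against 1720 ± 47.8 CPM after normoxia-hyperoxia (SD, n = 3), a log2 difference over both strains of 7.44, SE 0.24, edgeR adjusted p = 4.35e-11. Hspa5, lower than in controls, was higher than under normoxia by 1.74 on the log2 scale, and Slc22a6 had a value of -5.26. Slc16a3 was above normoxia by 5.45, and Nqo1 below both references (-0.63 against normoxia). Nqo1 did not stand for its list: of 20 NRF2 targets 9 were above normoxia and 8 below (median 0.09). Hmox1 was above it by 5.35. Havcr1 was above normoxia in the mean over strains (1.01, SE 0.24, edgeR adjusted p = 0.00142), but only DBA/2J showed it. Its DBA/2J counts were 399, 80 and 374 after normoxia-hyperoxia and 124, 55 and 87 under normoxia. In C57BL/6J the groups overlapped, at 33, 29 and 11 against 30, 21 and 25 counts.

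**Figure D3:**
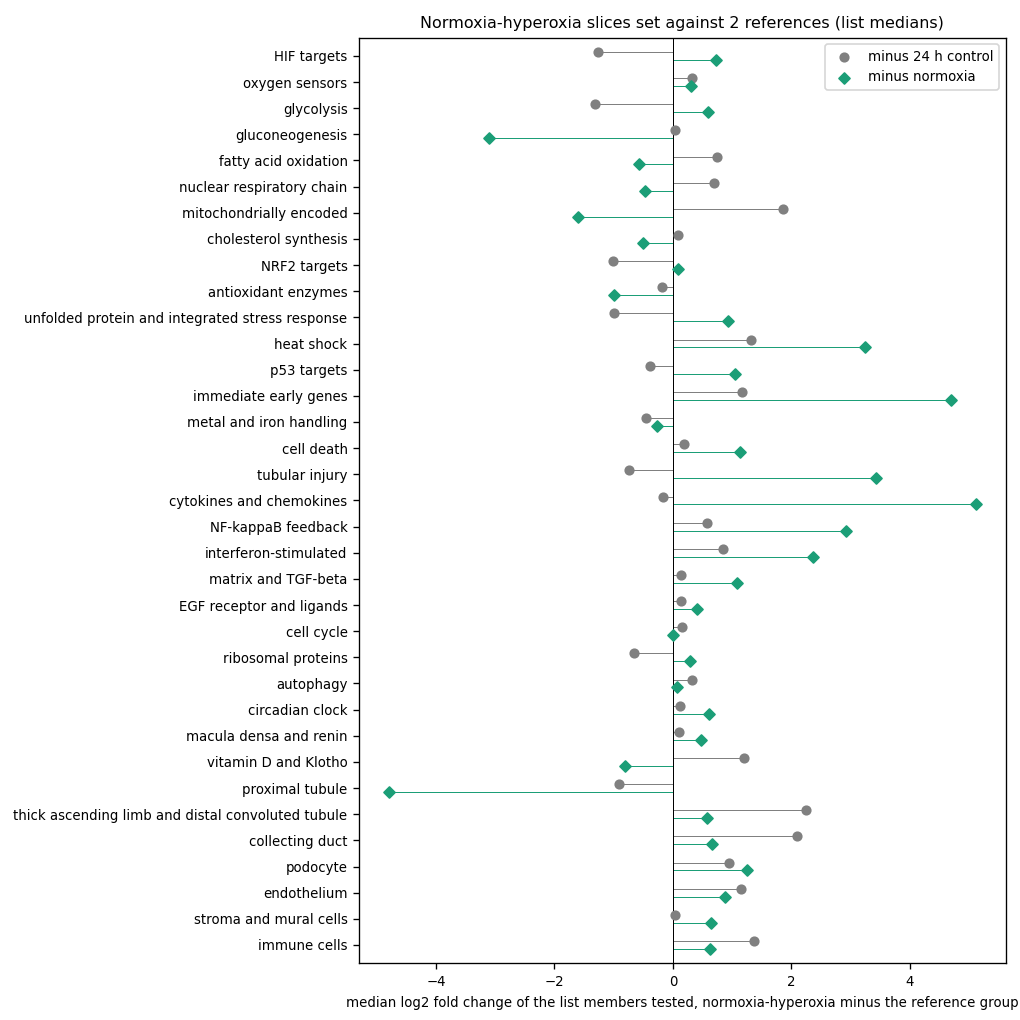
Median log2 fold change of the tested members of each list, for normoxia-hyperoxia minus 24 h control (grey circles) and minus normoxia (green diamonds), which share the treated libraries. Values are fitted, and some members, such as Ccl20, held few or no counts under normoxia. HIF targets lie at -1.27 against control and 0.73 against normoxia, and the mitochondrially encoded genes at 1.85 and -1.61, where the 6 abundant ones had medians of 1.81 and -0.30.

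Besides those counts of the largest decreases, the 6 h controls are given for 5 genes chosen after their levels were seen. These are values without a test. Pappa2 averaged 7.83 ± 0.942 CPM in C57BL/6J at 6 h, 0.184 ± 0.0355 CPM at 24 h and 6.7 ± 0.442 CPM after normoxia-hyperoxia (SD, n = 3, here and in the rest of the paragraph). In DBA/2J the Pappa2 means were 18.1 ± 3.49, 0.528 ± 0.072 and 28.9 ± 15.6 CPM in the same order, so that in both strains the 24 h controls lay below the other groups. Havcr1 averaged 1.44 ± 0.321, 223 ± 23.3 and 1.23 ± 0.644 CPM in C57BL/6J and 23.3 ± 8.78, 540 ± 257 and 18.8 ± 4.72 CPM in DBA/2J. Plvap averaged 515 ± 16.2, 53.1 ± 9.4 and 437 ± 122 CPM in C57BL/6J and 346 ± 60.4, 54.2 ± 12.1 and 518 ± 119 CPM in DBA/2J. For Havcr1 the 24 h controls were the high group in both strains, and for Plvap the low group. Fos did not follow this: in C57BL/6J it averaged 560 ± 44.3 CPM at 6 h, 129 ± 7.54 CPM at 24 h and 1720 ± 47.8 CPM after treatment, and in DBA/2J 421 ± 65.6, 99.6 ± 12.8 and 1240 ± 125 CPM, with every treated library above both sets of controls. Slc22a6 stood at 306 ± 122 CPM at 6 h, 33.4 ± 7.55 CPM at 24 h and 11.8 ± 2.27 CPM after treatment in C57BL/6J. Its DBA/2J means were 736 ± 92.8, 172 ± 58.5 and 59.7 ± 11.6 CPM, and in both strains every treated library lay below both sets of controls.

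The response was called in C57BL/6J for 9904 genes (57.4%; 28.8% higher and 28.6% lower) and in DBA/2J for 9895 (57.3%; 28% higher and 29.3% lower). The difference between the strains' responses, tested by interaction, passed for 247 genes (1.43%), 164 with a higher log2 fold change in DBA/2J (0.95%) and 83 with a lower one (0.481%). That count depended on single libraries: it was 126 without C57BL/6J control replicate 2, 128 without control replicate 3, 114 without C57BL/6J normoxia-hyperoxia replicate 1, 142, 524 and 103 without DBA/2J control replicate 1, 2 and 3, and 128 without the shallow DBA/2J normoxia-hyperoxia replicate 2. It also depended on the fit, at 409 in a single fit of all 48 libraries and 618 with replicate number as a block. It was 661 with DESeq2 and 1156 without the low-count filter. Hgsnat, a lysosomal enzyme of heparan sulfate breakdown, had the smallest p. Hgsnat stood at 280, 284 and 301 CPM in the C57BL/6J controls and at 73.3, 62.2 and 75.2 CPM after normoxia-hyperoxia. Among the DBA/2J libraries, Hgsnat read 38.2, 41.7 and 42.7 CPM in controls and 58.6, 62 and 67.6 CPM in treated slices. The effects were -2.04 in C57BL/6J and 0.61 in DBA/2J, and the difference was 2.65, SE 0.13, edgeR adjusted p = 4.92e-08. Control slices of C57BL/6J held Mlycd at 13.4, 13.6 and 13 CPM, and treated slices at 13.4, 15.7 and 14.4 CPM. For DBA/2J the Mlycd values were 25.7, 26 and 27.7 CPM and 77.9, 78.6 and 77.4 CPM in the same order. For Mlycd, which breaks down malonyl-CoA, the difference was 1.43, SE 0.12, edgeR adjusted p = 1.99e-05. The 3 C57BL/6J control libraries gave 78.3, 79.5 and 88.9 CPM for Car12, and the 3 treated libraries 389, 285 and 429 CPM. Car12 levels in DBA/2J were 242, 270 and 250 CPM in controls against 250, 232 and 318 CPM after treatment. Car12 had effects of 2.16 in C57BL/6J and 0.065 in DBA/2J (difference -2.09, SE 0.20, edgeR adjusted p = 0.000294).

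Stc2 levels were 56.5, 45.1 and 52 CPM without and 3.68, 3.63 and 4.97 CPM with normoxia-hyperoxia in C57BL/6J. With DBA/2J slices, Stc2 gave 30.5, 31.9 and 32.8 CPM and 11, 6.64 and 8.75 CPM, respectively. Stc2, a secreted glycoprotein of the stress response, differed by 1.84, SE 0.22, edgeR adjusted p = 0.00124. Cxcl1, a neutrophil attractant, had effects of -1.60 in C57BL/6J and -0.29 in DBA/2J (difference 1.31, SE 0.17, edgeR adjusted p = 0.00169; adjusted p = 0.052 in the fit of all 48 libraries), and Blvrb, a biliverdin reductase, effects of -2.43 in C57BL/6J and -1.27 in DBA/2J (difference 1.15, SE 0.15, edgeR adjusted p = 0.00174). Col5a2, a collagen chain, differed by -2.37, SE 0.17, edgeR adjusted p = 4.08e-06, but did not pass in the fit of all 48 libraries (edgeR adjusted p = 0.104). Gsta2 (-2.38, SE 0.23, edgeR adjusted p = 2e-04), H2-Q2 (2.40, SE 0.26, edgeR adjusted p = 0.000632) and H2-Q10 (2.29, SE 0.29, edgeR adjusted p = 0.00169) belong to families of near-identical genes, and their values are uncertain for that reason.

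**Figure D4:**
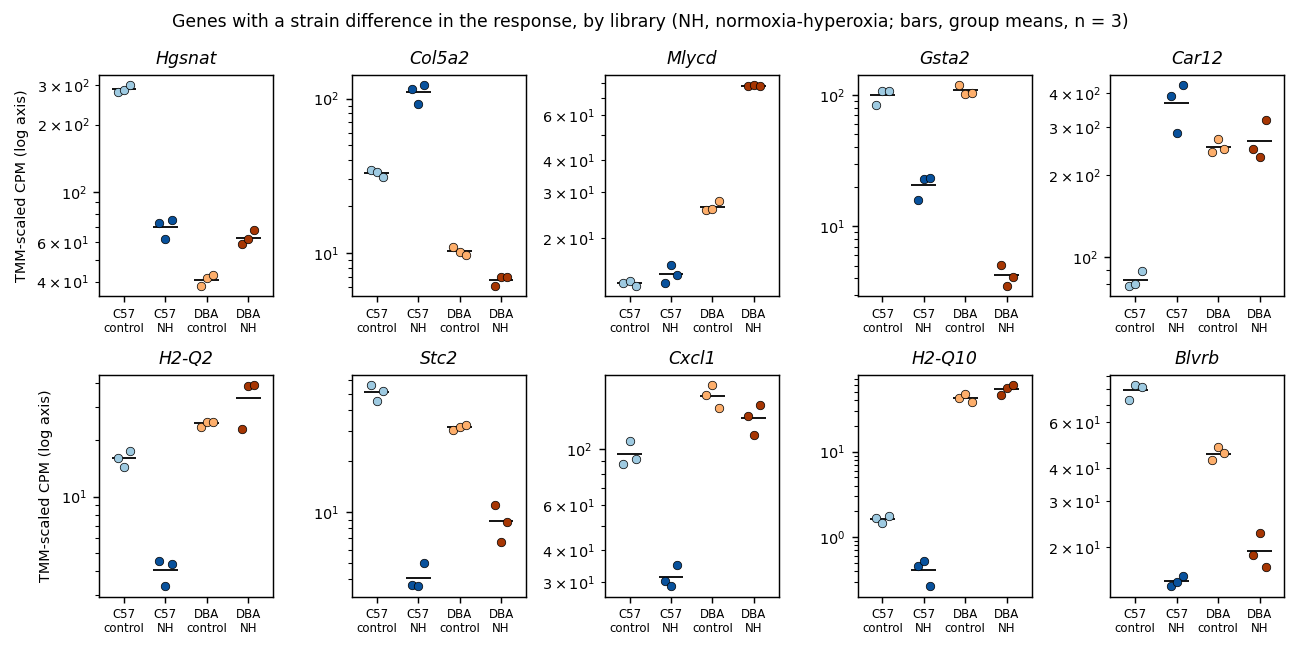
TMM-scaled CPM (log axis) in each of the 12 libraries for the 10 genes with the smallest p in the test of the strain difference; points are libraries, bars are group means (n = 3). Hgsnat has the smallest p of the set, with effects of -2.04 in C57BL/6J and 0.61 in DBA/2J on the log2 scale.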

How the data were processed

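Whole-number gene counts for all 48 libraries were deposited by the authors in 1 table of 55487 Ensembl IDs, of which 55141 matched a symbol. Per the labels' protocols, a Qiagen midi kit gave the RNA and an Illumina stranded mRNA ligation kit the libraries. Per the submitters' processing notes, bcl2fastq 2.20.0, FastQC 0.11.8, STAR 2.7.9a and featureCounts 1.5.1 were used with GRCm38; the annotation release, strand setting and filters are not given in the sources used here, so overlapping and antisense genes may share reads.

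The 12 libraries were fitted in edgeR 4.0.16 (R 4.3.3, limma 3.58.1) with 1 mean per strain and condition, TMM factors, edgeR's default low-count filter and the robust quasi-likelihood F test. Contrasts gave the mean over strains, each strain, and their difference. Normoxia-hyperoxia was compared with normoxia in a fit of its own. P-values were adjusted by the Benjamini-Hochberg method over all genes tested. The SE is the fold change divided by the square root of F. Levels are CPM, counts scaled to library totals with TMM factors over all 48 libraries. The floor is 3 counts per library. The fit was tested on simulated data. Coordinates come from GENCODE M21 and promoters from RefSeq, both on GRCm38.

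The members and gene lists were chosen with earlier results of these data known. Named genes were the 12 largest increases and 12 largest decreases past the threshold with mean log2 CPM of at least 2 and separated groups, the 10 smallest p-values for the strain difference, and, per list, the largest changes with a few fixed genes; some of these are not reported here. Same-numbered libraries were not treated as pairs, since the labels name no shared animal and not every same-numbered pair had a residual correlation over 0.1. Replicate libraries differed by more than sampling noise. Alternatives were other scalings, no filter, DESeq2 1.42.0, a fit of all 48 libraries, the replicate block, omission of mitochondrial genes and each library left out.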

Additional observations from a re-analysis of the deposited data

Results flagged for a closer look

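The 10 genes here are those with the smallest p among the 247 in which the response to normoxia-hyperoxia differed between the strains by the interaction test. Col5a2 and Cxcl1 did not pass in a single fit of all 48 libraries (edgeR adjusted p = 0.104 and 0.052). The difference (log2 fold change in DBA/2J minus that in C57BL/6J) was 2.65 for Hgsnat, 1.43 for Mlycd, 2.4 for H2-Q2, 2.29 for H2-Q10, 1.84 for Stc2, 1.31 for Cxcl1 and 1.15 for Blvrb. It was negative, with a lower log2 fold change in DBA/2J, for Gsta2 (-2.38), Col5a2 (-2.37) and Car12 (-2.09). Opposite signs of the 2 strains' effects were seen for Hgsnat (-2.04 in C57BL/6J and 0.61 in DBA/2J), Col5a2 (1.73 in C57BL/6J and -0.64 in DBA/2J), H2-Q2 (-1.97 in C57BL/6J and 0.43 in DBA/2J) and H2-Q10 (-1.95 in C57BL/6J and 0.34 in DBA/2J). The cause of these differences was not tested.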

How the results depend on the processing

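Over the alternatives run, the count of genes differing from 24 h controls lay between 11412 and 12435 (main 11772), and each of the 12 single-library omissions gave between 11412 and 11734. Counts in C57BL/6J and DBA/2J with 1 library left out ran from 8853 to 10148 and from 8943 to 10063, and those against normoxia from 12365 to 12702. The strain difference moved most: 247 genes became 409 in a single fit of all 48 libraries, 661 with DESeq2, 1156 without the low-count filter, and between 103 and 524 with 1 library left out. With the replicate block it was 618 genes, 240 of them shared with the fit without it, and the block moved no other count of genes in a comparison by over 1.5 times. Same-numbered libraries had residual correlations over 0.1 in 4 of 6 pairs. The treated library correlated best with the control of its own number in 3 of 3 cases in C57BL/6J and 2 of 3 in DBA/2J, a hint from the data and not from the design. Total-count scaling shifted the median of all genes to -0.166, and the medians of 8 lists changed sign under it: cholesterol (-0.0817), clock (-0.0479), matrix (-0.0314), EGF receptor (-0.035), cell cycle (-0.0132), gluconeogenesis (-0.143), macula densa and renin (-0.0627) and stroma and mural cells (-0.138), so no direction was given for those lists. The strain differences of Col5a2 and Cxcl1 no longer passed in the fit of all 48 libraries (edgeR adjusted p = 0.104 and 0.052), and Srxn1 no longer passed with total-count scaling (edgeR adjusted p = 0.0564). The falls of Ren1 (-1.04), Hsf1 (-0.17) and Cdh5 (-0.47) and the rise of Slc37a4 (0.30) did not pass with some single libraries left out, and minority counts of 5 or fewer members moved by 1 to 3 in several lists. Genes of the mitochondrial genome have no value where those genes were left out. Depth limits most the DBA/2J normoxia-hyperoxia group, where 1 library held 5619309 counts. The causes were not tested.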
